A study of Mus musculus with 2 samples.

Results

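CD4 conventional T cells are the helper arm of the adaptive immune system: they read antigen through an alpha beta receptor with the help of the co-receptor CD4, and they lack Foxp3, the factor that defines regulatory T cells. Here the cells were chosen by their own UMI counts, so the genes of the rule describe the choice and are no finding. A cell was counted when it held at least 2 UMIs (unique molecular identifiers, each counting 1 captured RNA molecule) of Cd3d, Cd3e, Cd3g, Trbc1 and Trbc2 together, at least 1 UMI of Cd4, and none of Cd8a, Cd8b1, Foxp3, Trdc, Cd79a, C1qa or Epcam. This rule found 168 of 42143 kept barcodes of the sham library, a share of 0.399% (95% exact Clopper-Pearson interval 0.341 to 0.464%), and 3 of 9246 of the colotomy library, a share of 0.0324% (0.00669 to 0.0948%). Both libraries together gave 171 of 51389, and the account below rests on the sham library.

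The study compared C57BL/6 mice aged 8 to 12 weeks on postoperative day 14, following either colotomy, in which the colon is cut open, or a sham operation. Each group is 1 droplet library that pools cells of bowel with cells of the neighbouring mesenteric fat (MAT, for mesenteric adipose tissue), so a difference between the groups has no replicate and no test was made. The colotomy library held 12002711 gene UMIs in 15547 barcodes and the sham library 74006762 in 44814. How many mice went into a library is not given in the sources used here. All intervals cover counting error only, at 95%, and not the spread between animals or digestions. Those of CPM and of CPM ratios take each UMI as independent, so they also leave out the spread between cells. They are too narrow for a gene whose UMIs lie in a few cells.

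Naive CD4 T cells recirculate through lymphoid tissue under the receptor CCR7 and leave it along the S1PR1 gradient, and the factors TCF1 (Tcf7) and LEF1 keep them quiescent. After antigen they lose these receptors and gain adhesion genes such as Cd44, and they take up helper programmes named for their master factors: Tbx21 for Th1, Gata3 for Th2 and Bcl6 for follicular helper cells, which assist B cells. The bowel wall, its lymphoid follicles and the fat beside it can hold all of these.

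Tissue of origin had been marked before pooling with 2 antibody hashtags of 15 bases, shown because they are the only record of which cell came from bowel and which from fat. They are written 5′ to 3′ as the submitters list them.
hashtag 1, paired with bowel: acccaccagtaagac
hashtag 2, paired with MAT: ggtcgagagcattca
The hashtag reads did not separate the cells. After each hashtag was divided by its library median, a ratio of 3 or more assigned 4 of the 168 sham CD4 T cells, and all 4 fell on hashtag 1. As a check, 73.3% of the 60 assigned sham barcodes with at least 2 UMIs of the epithelial gene Epcam fell on hashtag 1, under the 80% required for use of the tissue names. The CD4 T cells are therefore described without a tissue of origin.

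The sham CD4 T cells held 297978 UMIs in all, between 658 and 9395 per cell with a median of 1467.5, and the 3 colotomy cells held 562, 902 and 1159. Most cells met the rule narrowly. Of the 168 sham cells, 55 had 2 receptor UMIs, 43 had 3 and 70 had more, while 153 had a single Cd4 UMI, 13 had 2 and 2 had more. Just outside the rule, 97 sham barcodes held 1 receptor UMI with all else met, and 1514 held no Cd4 UMI with all else met. How many of these 1514 are CD4 T cells was not tested, so 168 is a count by the rule and not the number of CD4 T cells in the library. Of 190 barcode sequences found in both libraries, none was a CD4 T cell in both, and 1 sham CD4 T cell shared its barcode with any colotomy barcode.

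The rule's genes were also seen in sham barcodes marked as other cells. At least 2 receptor UMIs were held by 7.60% of fibroblast-marked, 12.1% of macrophage-marked and 11.3% of B-marked barcodes. A Cd4 UMI was held by 1.94% of fibroblast-marked, 2.14% of B-marked and 6.28% of macrophage-marked barcodes. Macrophages can express Cd4 themselves. Of 695 CD8-marked barcodes, 26 held a Cd4 UMI (3.74%, 2.46 to 5.43%). CD8-marked means at least 2 receptor UMIs and at least 2 UMIs of Cd8a and Cd8b1 together. How many of the 168 cells are other T cells with a stray Cd4 UMI was not tested. Both criteria together were met by 0.697% of fibroblast-marked, 1.62% of macrophage-marked and 0.961% of B-marked barcodes, and by 478 of all 42143 kept sham barcodes. The 0.399% that met the full rule is no like share, because it was counted after the further exclusions. At least 1 UMI of Cd79a, a B cell gene, was held by 41.8% of fibroblast-marked barcodes, and the requirement for no Cd79a removed 213 of the 410 sham barcodes that had passed all steps before it. Free RNA and doublets were not told apart for these values. Genes the rule did not use bear directly on the T cell part of the label. Trac, Lck, Thy1 and Cd28, which encode the receptor alpha chain, its kinase, a T cell surface protein and a co-stimulatory receptor, were seen in 120 of the 168 cells (71.4%), against 69.7% of CD8 T cells and 11.5% of B cells. The B cells were chosen without receptor UMIs, which can lower their share. Among all other kept barcodes, other T cells included, the share was 23.6%. Trac stood at 265 CPM (the gene's UMIs over all gene UMIs of the cells, times 1e6; 210 to 330) in CD4 T cells, 226 CPM in CD8 T cells, 14.95 CPM in B cells and 10.1 CPM in fibroblasts. By these 4 genes the group lies with the T cells, but they do not tell CD4 from CD8 T cells. The rest of the 168 cells showed none of them.

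RNA of other cell types was present in every one of the 168 cells. The 39 markers of B, plasma, macrophage, epithelial, fibroblast and erythroid cells that the rule did not use gave a median of 16 UMIs per cell, 1.08% of its UMIs. B cell markers summed to 5329 CPM, with all 8 detected, against 11362 CPM in all other kept barcodes, and erythroid markers to 5964 CPM against 8236. Plasma cell markers summed to 8027 CPM against 14875, and stood at 3741 CPM in CD8 T cells. Neutrophil markers gave 1 UMI in all, with 3 of 4 genes at 0, and gamma delta T cell markers gave 2 UMIs, with 3 of 5 at 0. Markers of innate lymphoid cells (ILC2 or ILC3) were higher, at 134 CPM with all 7 detected, against 67.5 CPM in all other kept barcodes and 65.5 CPM in CD8 T cells. Gata3 and Il1rl1 are on that list and on the Th2 list below, and their source was not tested. NK or ILC1 markers stood at 43.6 CPM against 30.2 CPM, and at 125 CPM in CD8 T cells. Fibroblast markers reached 5 or more UMIs in 16 of the 168 cells (9.52%), a share that lay inside the counting interval of that in CD8 T cells (10.3%, 8.17 to 12.8%). Their part in the results was not tested beyond the values with such cells left out, given where they matter.

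The comparison groups come from the sham library. CD8 T cells (697) met the receptor rule with Cd8a or Cd8b1 and no Cd4, Foxp3 T cells (33) met it with Foxp3 and no Cd8, whether or not Cd4 was seen, and 13580 B cells and 2046 fibroblasts, without receptor UMIs, served as background. CD4 T cells were fewer than CD8 T cells by this count, but 1 gene marks the former and 2 the latter, so the counts give no ratio of the lineages.

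Tcf7, Lef1 and Il7r stood above B cells and fibroblasts in the CD4 T cells, while the naive list as a whole did so by less. The list summed to 3393 CPM in CD4 T cells, 2335 CPM in B cells and 2502 CPM in fibroblasts, and at 1000 UMIs a gene of it was expected in 91.5%, 86.6% and 88.4% of cells. Tcf7, which encodes TCF1, stood at 450 CPM (377 to 533) in CD4 T cells, 298 CPM (267 to 330) in CD8 T cells, 113 CPM (41.4 to 246) in Foxp3 T cells, 23.2 CPM in B cells and 13.6 CPM in fibroblasts. Lef1 showed the other order among the T cells, with 195 CPM (148 to 252) in CD4, 286 CPM (256 to 318) in CD8 and 56.4 CPM (11.6 to 165) in Foxp3 T cells. The log2 ratio of CD4 over CD8 T cells was thus 0.60 for Tcf7 (0.30 to 0.89) and -0.55 for Lef1 (-0.98 to -0.15), so that the 2 partner factors differed in opposite directions. Il7r, the receptor for the survival cytokine IL-7, reached 171 CPM (127 to 225) in CD4 and 212 CPM (186 to 240) in CD8 T cells, intervals that overlap.

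**Figure D1:**
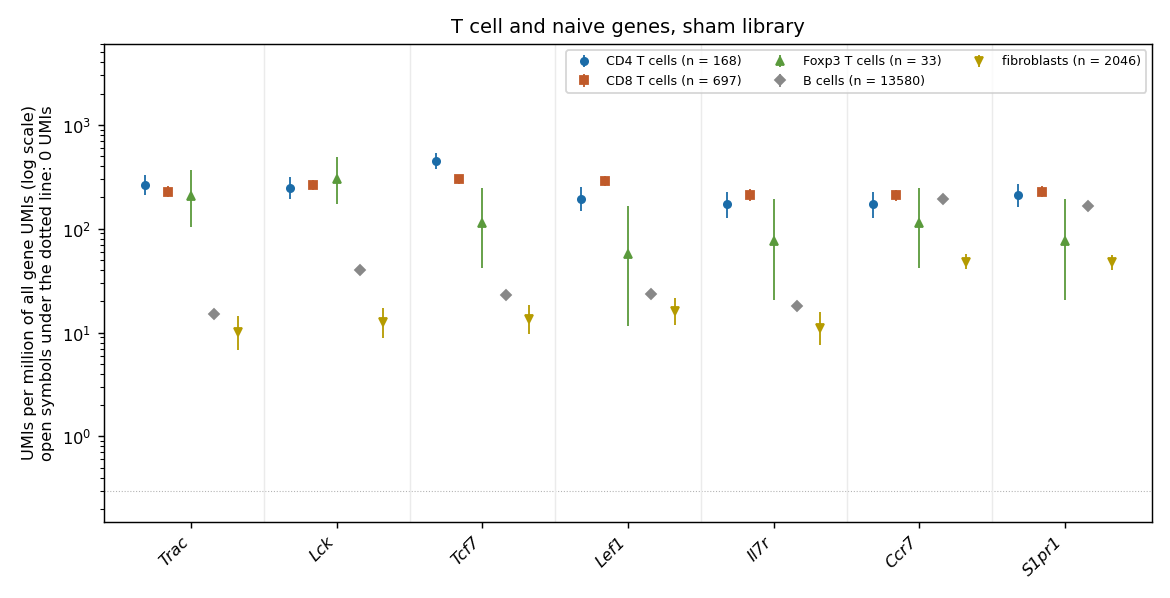
Level in CPM (log axis) for T cell and naive genes in 5 cell groups of the sham library; bars are exact 95% Poisson intervals. Trac, Lck, Tcf7, Lef1 and Il7r sit higher in the 3 T cell groups than in B cells and fibroblasts, while Ccr7 and S1pr1 are about as high in B cells as in CD4 T cells.

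The homing genes carried less information about T cells, because B cells use them too. Ccr7 stood at 171 CPM in CD4 T cells, 210 CPM in CD8 T cells and 192 CPM in B cells. S1pr1, the egress receptor, was at 211 CPM, 227 CPM and 166 CPM. For both genes the interval of the CD4 over CD8 ratio held no difference.

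Cells were next sorted by 4 genes into a naive side (Lef1 or Igfbp4, neither Cd44 nor S100a4) and a memory side (the reverse). The naive side held 69 of the 168 CD4 T cells (41.1%, 33.6 to 48.9%) and the memory side 18 (10.7%, 6.47 to 16.4%), while 13 cells showed both and 68 neither. The 68 were shallower, with a median of 1237.5 UMIs against 1590 on the naive side. After thinning each cell to 1000 UMIs, which left 137 CD4 T cells, the expected shares were 34.4% (26.5 to 43.0%) and 10.1% (5.58 to 16.4%). CD8 T cells gave 38.3% (34.2 to 42.6%) and 7.29% (5.23 to 9.83%) at that depth, and B cells 10.8% and 8.26%. Fibroblasts gave 54.8% on the naive side, since Igfbp4 is also a gene of stromal cells, and 4.75% on the memory side. CD4 and CD8 T cells had overlapping intervals on both sides, and the memory share of CD4 T cells held that of B cells within its interval. Of the 16 CD4 T cells with 5 or more fibroblast UMIs, 13 lay on the naive side and 0 on the memory side; without them the naive share before thinning was 36.8%.

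**Figure D2:**
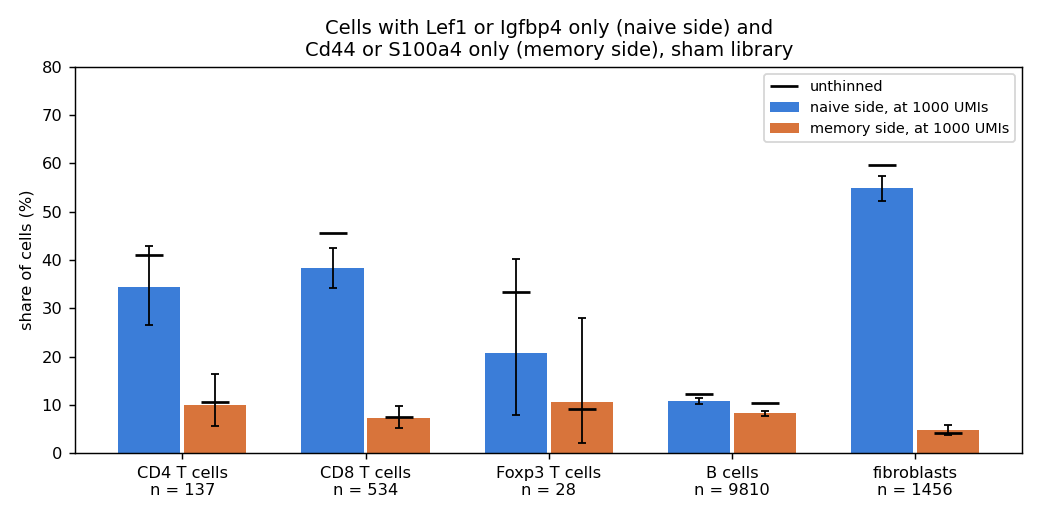
Share of cells (%) on the naive side (blue) and memory side (orange) in 5 cell groups of the sham library; bars are expected shares at 1000 UMIs with exact 95% intervals, and black dashes are the shares before thinning. Fibroblasts have the tallest naive bar (54.8%), followed by CD8 (38.3%) and CD4 T cells (34.4%), and the memory bars all lie between 4.75 and 10.6%.

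Genes not used in this split were compared between its sides as counts of 18 against 69 cells. S1pr1 gave 31 UMIs (258 CPM, 175 to 366) on the naive side and 4 UMIs (92.0 CPM, 25.1 to 236) on the memory side. Ccr7 gave 33 UMIs (275 CPM, 189 to 386) and 6 UMIs (138 CPM, 50.7 to 300). Tcf7 stood at 483 CPM (366 to 624) and 322 CPM (176 to 540). All 3 were lower on the memory side, with intervals of the ratio that held no difference. Of 11 naive genes with 10 or more UMIs over both sides, 0 were at least 1.5-fold higher on the memory side and 8 lower (median log2 -0.83). Among all 2677 genes so counted, 26.6% were that much higher and 23.7% lower, with a median of 0.05. The memory list stood near this background, with 2 higher and 2 lower of 13 (median 0.20); S100a6, a calcium-binding protein, was at 805 CPM (561 to 1120) on the memory side against 541 CPM (417 to 689), and its log2 ratio went from 0.57 to -1.65 when 2 Cd4 UMIs were asked for.

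Proliferation genes were higher on the memory side. Mki67, a gene of dividing cells, gave 12 UMIs in 5 cells (276 CPM, 143 to 482) there and 5 UMIs in 4 cells (41.6 CPM, 13.5 to 97.1) on the naive side. Top2a, a topoisomerase of dividing cells, gave 17 UMIs in 4 cells (391 CPM, 228 to 626) against 12 UMIs in 8 cells (99.9 CPM, 51.6 to 174). Of the 10 proliferation genes counted, 7 were at least 1.5-fold higher on the memory side and 1 lower (median log2 1.07). Over all genes counted, 26.6% were that much higher and 23.7% lower. The median of the proliferation list was 1.21 without cells holding 5 or more fibroblast UMIs. It was 0.69 without cells that held at least 10 UMIs of Lyz2 or 40 of Igha or Igkc. Median depths were alike, 1573 UMIs on the memory side and 1590 on the naive side. The sums were 43467 UMIs over 18 cells and 120174 UMIs over 69 cells, and deeper cells weigh more in the CPM.

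Genes were named by ratio only among those with at least 50 UMIs and 100 CPM in the group where they were higher and at least as high there as in the remaining kept barcodes, leaving out the genes of the rule and of the split. Among the 21 genes so eligible on the memory side, the largest ratios were those of Lyz2 (1265 CPM against 8.32) and Retnla (1564 CPM against 58.2), both known from macrophages, followed by Mif, Hmgb2 and Ppia. Of the 161 Lyz2 UMIs of the CD4 T cells, 116 lay in 2 cells, and of the 251 Retnla UMIs, 227 lay in 2 cells. Without the cells high in Lyz2, Igha or Igkc, the log2 ratio of Mif went from 1.41 to 0.28 and that of Ppia from 1.06 to 0.37, while that of Mki67 was 2.59 against 2.73 with all cells. With barcodes holding Cd79a let in, it was 0.72. Among the 39 genes eligible on the naive side, the largest ratios were those of Dcn, C3, Sparc, Limd2 and Satb1. Dcn, a matrix gene of fibroblasts, stood at 1440 CPM on the naive side against 69.0 CPM, and its log2 ratio went from -4.38 to 0.04 once cells with 5 or more fibroblast UMIs were left out. Satb1, a chromatin organiser of T cells, was at 491 CPM (374 to 633) against 276 CPM (143 to 482).

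**Figure D3:**
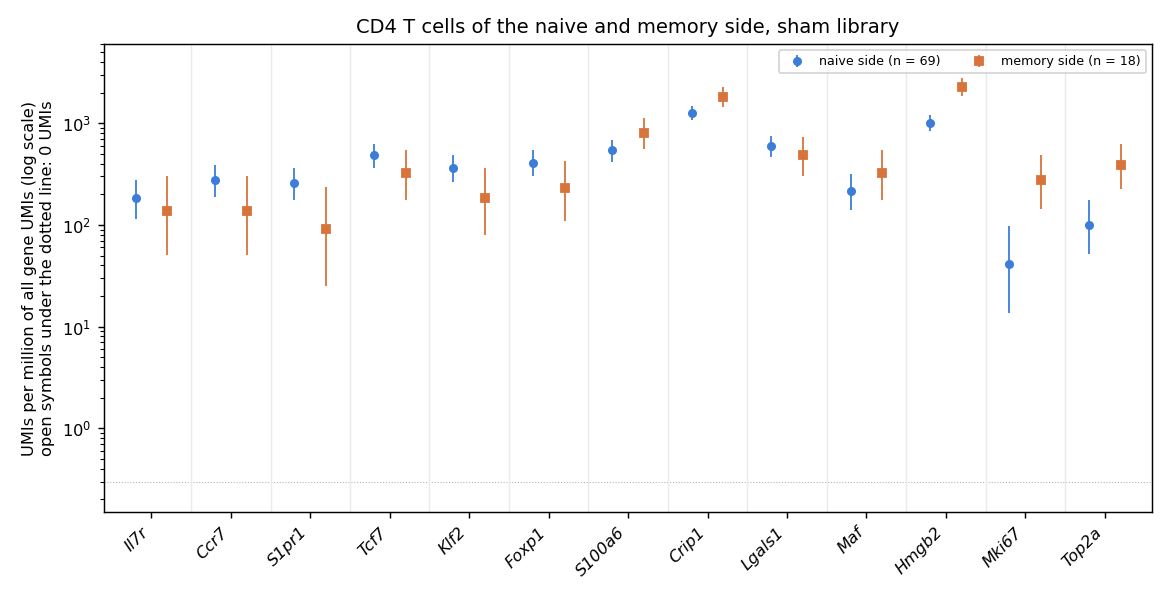
Level in CPM (log axis) of 13 genes that did not define the split, in naive-side (69) and memory-side (18) CD4 T cells of the sham library, with exact 95% Poisson intervals. Mki67, Top2a and Hmgb2 are higher on the memory side, while the intervals of Il7r, Ccr7, S1pr1, Tcf7, Klf2 and Foxp1 overlap between the sides.

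Against CD8 T cells, the CD4 T cells were low in cytotoxic and Th1 genes. Ccl5, a chemokine of effector and memory killer cells, stood at 47.0 CPM (25.7 to 78.8) in CD4 T cells and 440 CPM (403 to 480) in CD8 T cells, 9.37-fold apart. Nkg7, a granule protein, was at 53.7 CPM (30.7 to 87.2) against 259 CPM (231 to 290), and Gzma, a granule protease, was at 0 UMIs against 65, the latter in 9 cells. Of the 8 cytotoxic genes with 10 or more UMIs in both groups together, 0 were at least 1.5-fold higher in CD4 T cells and 7 lower (median log2 -2.36). For the Th1 list it was 0 higher and 6 lower of 7 (median -1.19). Over all 9551 genes so counted, 16.6% were that much higher and 16.4% lower, with a median of 0.05, and 30.0% of simulated unchanged genes passed 1.5-fold in either direction from counting error alone. Both lists thus held far more lower genes than the background share, while the naive list (1 higher and 3 lower of 17) and the memory list (2 and 2 of 17) stood near it. The largest ratios toward CD8 T cells by the naming rule were those of Ccl5, Ly6c2, Ctsw, Nkg7, Dapl1, Xrn2, Runx3 and Epsti1.

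Runx3, the factor that sets the CD8 lineage, stood at 104 CPM (70.7 to 148) in CD4 and 245 CPM (217 to 275) in CD8 T cells. Zbtb7b, its counterpart that sets the CD4 lineage (ThPOK), was at 57.1 CPM (33.2 to 91.3) against 20.4 CPM (13.1 to 30.4). These 2 genes, neither used to choose the cells, lie in the directions known for the lineages. Cd40lg, the helper ligand for B cells and dendritic cells, gave 5 UMIs in 5 CD4 T cells and 4 UMIs in CD8 T cells, 16.8 CPM against 3.40. Dapl1, in contrast, which is on the naive list, was low in CD4 T cells at 43.6 CPM against 156 CPM.

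The largest ratios toward CD4 T cells by the same rule were those of Lyz2, Maf, Retnla, Cd5, Tspan13, Ptms, Pycard and Stmn1. Maf stood at 242 CPM (189 to 304) against 74.0 CPM (59.2 to 91.2). Cd5, a brake on receptor signalling, was at 175 CPM (130 to 229) against 79.9 CPM (64.6 to 97.8), and Cd28 at 151 CPM (110 to 202) against 68.0 CPM (53.9 to 84.6). Lyz2 and Retnla turned to the CD8 side, at log2 -2.96 and -1.80, once the cells with high Lyz2, Igha or Igkc were left out of both groups, a filter that uses Lyz2 itself. Ptms went from 0.97 to 0.12 without barcodes holding Cd79b or Ms4a1. Of the 20 receptor signalling genes 4 were at least 1.5-fold higher and 0 lower, with a median of 0.36. Over all genes counted, 16.6% were that much higher and 16.4% lower, so the share of higher genes in this list lay near the background. Proliferation genes were 8 higher and 0 lower of 14 (median 0.63), but the median became 0.23 when barcodes with any Cd79b or Ms4a1 UMI were left out.

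**Figure D4:**
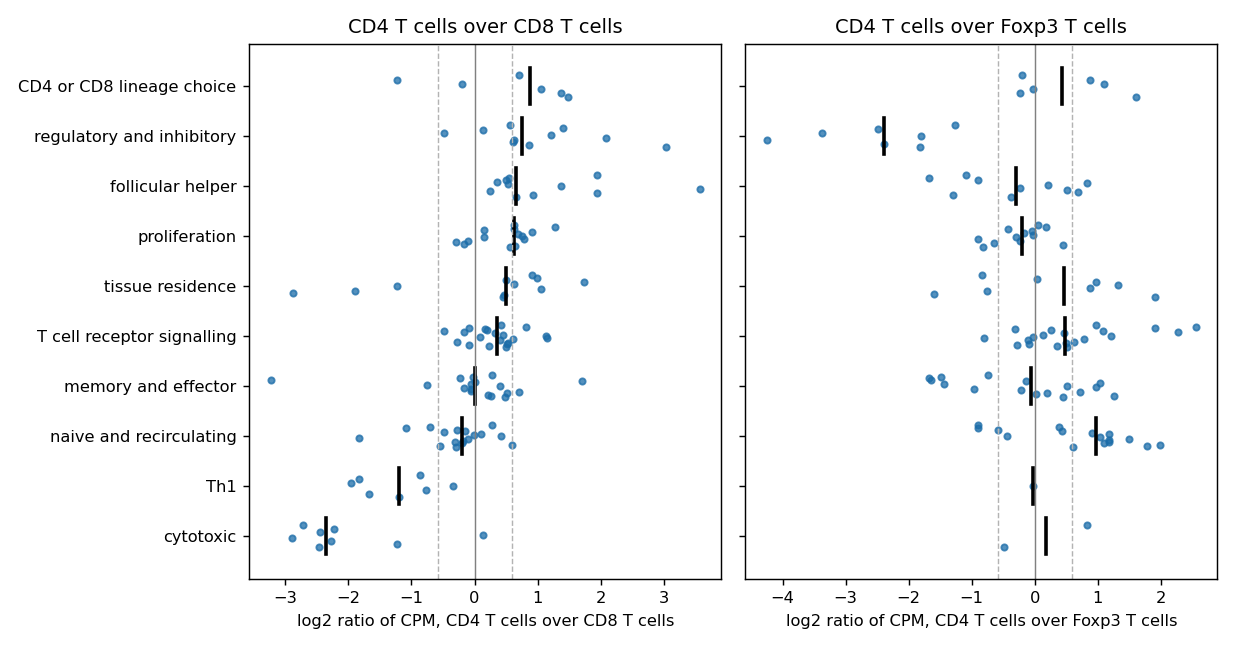
Log2 ratio of CPM of each list gene with at least 10 UMIs in both groups together (points) and the list median (black bars), for CD4 over CD8 T cells (left) and over Foxp3 T cells (right); dashed lines mark 1.5-fold. Cytotoxic and Th1 genes lie left of 0 against CD8 T cells with 1 cytotoxic exception, and the regulatory genes lie right of 0 against CD8 T cells apart from 1 (median 0.74) and all left of it against Foxp3 T cells (median -2.39).

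Several helper genes that were high against CD8 T cells belonged to the follicular helper list. Tox2, a factor of follicular helper cells, gave 24 UMIs in 17 CD4 T cells (80.5 CPM, 51.6 to 120) against 8 UMIs (6.80 CPM, 2.94 to 13.4) in CD8 T cells, 11.8-fold, and 0 in the Foxp3 T cells. Icos, a co-stimulatory receptor of follicular and regulatory cells, was at 107 CPM (73.5 to 152) against 28.1 CPM (19.3 to 39.4). Il21, the cytokine with which follicular helper cells drive B cells, gave 5 UMIs in 4 cells (16.8 CPM, 5.45 to 39.2) against 1 UMI (0.850 CPM, 0.0215 to 4.74). Bcl6, the master factor, was not raised over background: 8 UMIs (26.8 CPM, 11.6 to 52.9) against 37.8 CPM in B cells and 24.4 CPM in fibroblasts. Cxcr5, at 43.6 CPM (23.2 to 74.6), also lay within the level of B cells (51.5 CPM), which use this receptor themselves.

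Of the 11 follicular helper genes counted, 6 were at least 1.5-fold higher than in CD8 T cells and 0 lower (median 0.66). Over all genes counted, 16.6% were that much higher and 16.4% lower. At 1000 UMIs, 51.6% (42.9 to 60.2%) of CD4 T cells were expected to show a gene of this list, against 32.6% of CD8 T cells, 36.5% of B cells and 27.9% of fibroblasts. Foxp3 T cells gave 67.4% (47.2 to 83.8%). Over Foxp3 T cells, 2 of 10 list genes were at least 1.5-fold higher and 4 lower (median -0.30). Of all genes in that comparison, 25.8% were that much higher and 23.6% lower. The list was thus not raised over Foxp3 T cells and not particular to the CD4 T cells. Of the 17 cells with Tox2, 7 also held Cxcr5, Pdcd1 or Il21 (41.2%), against 7.28% of the other cells. Icos did not share this pattern, as 2 of the 22 cells with Icos held Tox2 (9.09%) against 10.3% of the rest. The Tox2 cells were somewhat deeper, with a median of 1783 UMIs against 1372. Maf was seen in 9 of the 17 (52.9%) and in 21.9% of the others. These are counts of a few cells in 1 library and carry no test.

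Regulatory genes were present although Foxp3 was absent by the rule. Ctla4, an inhibitory receptor, stood at 90.6 CPM (59.7 to 132) in CD4 T cells, 11.1 CPM (5.88 to 18.9) in CD8 T cells and 320 CPM (186 to 512) in Foxp3 T cells. Ikzf2, which encodes Helios, was at 101 CPM (67.9 to 144), 55.3 CPM (42.6 to 70.4) and 527 CPM (350 to 761), and its log2 ratio over CD8 T cells went from 0.87 to 0.0037 without barcodes holding Cd79b or Ms4a1. Izumo1r, which encodes folate receptor 4, was at 124 CPM (87.4 to 171), 32.3 CPM (22.9 to 44.3) and 263 CPM (144 to 442). With all cells, these 3 genes took the order Foxp3, CD4, CD8 T cells. In mm10 Ctla4 lies at chr1:60887000-60915832 and its neighbour Icos at chr1:60977927-61000320, both on the plus strand. Regulatory cells whose Foxp3 RNA was not captured cannot be told apart here from helper cells that express these genes.

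Against CD8 T cells, 7 of 10 regulatory genes were at least 1.5-fold higher and 0 lower (median 0.74), and against Foxp3 T cells 0 were higher and 7 of 7 lower (median -2.39). Against CD8 T cells 16.6% of all 9551 genes counted were that much higher and 16.4% lower. In the comparison with Foxp3 T cells 25.8% of 4885 genes were that much higher and 23.6% lower, with a median of -0.03 and only 53164 UMIs on the Foxp3 side. Tnfrsf4, the co-stimulatory receptor OX40, stood at 47.0 CPM (25.7 to 78.8) against 489 CPM (319 to 717). Naive genes went the other way, with 10 higher and 2 lower of 16 (median 0.97), among them Tcf7 (450 against 113 CPM) and Lef1 (195 against 56.4 CPM). By the naming rule the 2 largest ratios over Foxp3 T cells were again those of Lyz2 and Retnla, and toward Foxp3 T cells those of Ifi27l2a (544 against 1016 CPM) and H2-K1 (1373 against 1900 CPM).

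**Figure D5:**
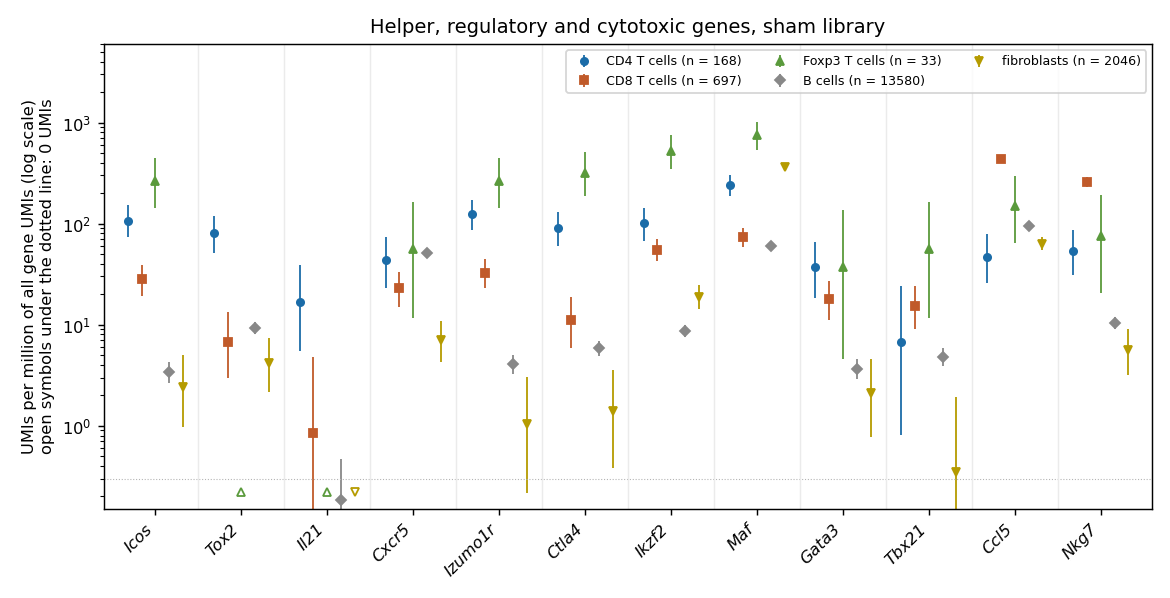
Level in CPM (log axis) of helper, regulatory and cytotoxic genes in 5 cell groups of the sham library, with exact 95% Poisson intervals; open symbols under the dotted line mark 0 UMIs. Icos, Izumo1r, Ctla4 and Ikzf2 fall from Foxp3 to CD4 to CD8 T cells, Tox2 and Il21 are higher in CD4 T cells than in CD8 T cells, B cells and fibroblasts, with 0 UMIs in the 33 Foxp3 T cells (up to 56.4 CPM allowed), and Ccl5 and Nkg7 are higher in CD8 than in CD4 T cells.

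The factors and cytokines of the other helper types were scarce. Tbx21 gave 2 UMIs, Ifng 1, Il4 1 and Il22 1 in the 168 cells, and Il17a, Il5, Il13, Il23r and Csf2 gave 0, which allows up to 3 counts, 10.1 CPM. Gata3 stood at 36.9 CPM (18.4 to 66.1) against 17.9 CPM (11.1 to 27.3) in CD8 T cells and 3.67 CPM in B cells. Il1rl1, the receptor for IL-33, gave 7 UMIs in 4 cells (23.5 CPM, 9.44 to 48.4) against 4.25 CPM in CD8 T cells. At 1000 UMIs, a Th2 gene was expected in 7.67% (3.82 to 13.5%) of CD4, 2.98% (1.71 to 4.80%) of CD8 and 18.3% (6.35 to 37.4%) of Foxp3 T cells. B cells gave 1.39% and fibroblasts 0.922%. A Th1 gene was expected in 9.39% (5.07 to 15.6%) of CD4, 17.5% (14.4 to 21.0%) of CD8 and 13.0% (3.39 to 31.2%) of Foxp3 T cells. For Th1 genes B cells gave 4.94% and fibroblasts 2.72%. The Th17 share of 13.5% was near that of CD8 T cells (13.1%) and below those of B cells (19.4%) and fibroblasts (32.2%). Whether it is background was not tested. Of the tissue residence list, 5 genes were at least 1.5-fold higher than in CD8 T cells and 3 of 11 lower, the latter being Runx3, Itgae and Cxcr6 (median log2 0.50, and -0.28 without barcodes holding Cd79b or Ms4a1). Over all genes counted, 16.6% were that much higher and 16.4% lower. Itgae, the integrin that binds epithelium, had 3 UMIs and Cxcr6, a receptor of resident cells, had 1, against 44 and 29 in CD8 T cells. Ccr9, the gut homing receptor, gave 6 UMIs (20.1 CPM, 7.39 to 43.8) against 60.4 CPM (47.1 to 76.1).

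Clustering of the 168 cells without the rule's genes gave 3 subclusters at resolution 0.6, and none earned a helper cell name. The grouping was unstable, with an adjusted Rand index of 0.17 against resolution 0.3 and 0.35 against resolution 1.0, where 1 means identical groups. The largest, of 88 cells with a median of 1293 UMIs, was led by Ccl5, Ubxn7 and Egr3 along with the epithelial gene Lgals4 and haemoglobin. A second of 64 cells, with a median of 1837 UMIs, was led by Ccr2 and by the division genes Tpx2, Cdca3 and Plk1, with Lyz2 and Tyrobp also among its first 10. Of these 64 cells, 22 (34.4%) held a UMI of Mki67, Top2a, Ccnb2, Birc5 or Cdk1, against 6.82% of the first subcluster. Division genes were not kept out of the clustering and the share was not thinned, so it describes the grouping and does not support it. The third, of 16 cells, was led by the matrix genes Dpt, C1s1 and Eln, and 14 of the 16 held 5 or more fibroblast marker UMIs. Fibroblast genes were not kept out of the clustering either, so that count is likewise a description. Of the third subcluster, 11 cells also held Trac, Lck, Thy1 or Cd28 (68.8%), at a median depth of 2079 UMIs. Among all CD4 T cells with 5 or more fibroblast UMIs, 9 of 16 held one of these genes (56.25%, median depth 1974 UMIs). Among those with fewer it was 73.0%, at a median of 1365 UMIs. These shares were not thinned to a common depth.

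The 3 CD4 T cells of the colotomy library are few enough to describe singly. The first, with 1159 UMIs, held 4 receptor UMIs and cell division RNA, with 4 UMIs of Top2a, 3 of Mki67 and 3 of Stmn1, and 1 of S1pr1. The second, with 902 UMIs, held 2 UMIs of Maf, 1 each of Cd28 and Cd5 and 3 of Tcf7, together with 2 of the goblet cell gene Muc2. It also held division RNA, with 5 UMIs of Hmgb2, 3 of Ube2c, 2 of Tubb5 and 1 each of Top2a and Pcna. The third, with 562 UMIs, held 4 receptor UMIs, 3 of Tcf7, 2 of Lck and 1 of Maf. One UMI over the 3 cells equals 381 CPM, more than the sham level of Icos, Ctla4, Tox2 or Lef1, so absence of a helper gene says nothing there. By the naming rule only Tmsb4x (8387 against 5615 CPM, log2 0.58, -0.10 to 1.18) and Actb (11818 against 8024 CPM, log2 0.56, -0.00 to 1.07) were eligible as higher in colotomy cells, and Btg1 (1 UMI, 381 against 1373 CPM) led the lower genes. The intervals of all 3 ratios held no difference.

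The share of CD4 T cells among kept barcodes was 12.3-fold higher in the sham library (4.13 to 60.2). The colotomy library was shallower, with a median of 778.5 UMIs per kept barcode against 1328. With sham barcodes thinned to the depths of the colotomy barcodes, 99 sham barcodes met the rule and the ratio was 7.24-fold (2.41 to 35.7). The libraries also differed in their other cells, with 13580 B cells in the sham and 275 in the colotomy library, and CD8 T cells numbered 697 and 5. Operation, library and cell recovery cannot be told apart with 1 library each.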

How the data were processed

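The deposited files hold raw UMI counts of 32285 genes and 2 hashtags per barcode, written by Cell Ranger 6.0.0 per the file headers. The submitters' processing notes also list mm10, STAR 2.5.1b, Seurat and Space Ranger, with no role given, and the cell-calling settings are not given in the sources used here. Barcodes with at least 500 gene UMIs, 300 genes and under 20% mitochondrial UMIs were kept. Scrublet called 0 doublets in either library, so it did not work here, and none were removed. UMIs were summed over cells and given as CPM with 95% exact Poisson intervals, shares with exact Clopper-Pearson intervals and ratios with exact conditional binomial ones. All cover counting error only, those of CPM and CPM ratios with each UMI taken as independent. A sum of 0 was set to a floor of 3 counts in a ratio. Shares at 1000 UMIs are expected values over all draws, which replaced single random draws after those were seen to vary. The naive and memory sides follow the split planned as an alternative (Lef1 and Igfbp4 against Cd44 and S100a4), and a few genes were taken out of the lists, because some items are not reported here. No test was run, because each group is 1 library. Per comparison, the naming rule takes the 12 genes with the largest ratio each way among those with at least 50 UMIs and 100 CPM in the higher group (20 UMIs for colotomy against sham), not below all other kept barcodes; the text names the first 8 (CD8), 2 (Foxp3) and 5 (memory side), a number set after the values were seen, besides members of the gene lists. The members and lists were chosen with earlier results of these data known. The interval code was checked on simulated counts of CD4 against CD8 T cells over 9512 genes, and the interval held the true ratio for 97.0% of unchanged genes. These counts were independent draws, which the interval assumes. The check therefore covers the code and not the coverage in these data, where UMIs of a gene can lie in a few cells. Clusters used scanpy 1.11.5 (2000 variable genes, 20 components, 15 neighbours) and leidenalg 0.10.2; counts used Python 3.11.15, numpy 2.4.6 and scipy 1.17.1.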

Additional observations from a re-analysis of the deposited data

How the results depend on the processing

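No paired analysis was possible because each group is 1 library. A value with a counting interval was taken as little changed when it moved by less than that interval. List medians and the number of subclusters have no such interval, and a move of less than 1.5-fold was the limit there. Of 870 values recomputed under alternatives, 181 of the main results and 607 of the single genes and lists were little changed in this sense. Of these, 3 and 23 log2 values lay near 0 and crossed it, among them the memory list between the sides (0.20 to -0.012 with at least 1000 UMIs, -0.33 without Cd79b or Ms4a1) and Maf between the sides (0.57 to -0.26 without Cd79b or Ms4a1). The causes of the other changes were not tested. The sham share of CD4 T cells became 0.464% with at least 1000 UMIs and 500 genes, 0.268% with at least 3 receptor UMIs, 0.663% without barcodes holding Cd79b or Ms4a1, 0.80% with Cd79a let in and 0.235% at colotomy depths. Asking for 2 Cd4 UMIs left 15 sham cells (0.0356%) and a colotomy share of 0%, hence no ratio of shares; the Th2 share was then 0% and the follicular helper share 72.5%. List medians there were 4.47 for proliferation on the memory over the naive side (1 gene), and against CD8 T cells 1.93 for Th1 (1 gene, opposite in sign), 2.26 for follicular helper and 1.29 for proliferation, with -1.43 for the regulatory list against Foxp3 T cells. Genes that changed sign there were Lyz2 (-0.41) and Retnla (-1.21) against CD8, Ifi27l2a (0.60), Izumo1r (0.11) and H2-K1 (0.0072) against Foxp3 T cells, and S100a6 (-1.65) between the sides. Alternatives chosen after seeing the data were the removal of barcodes with Cd79b or Ms4a1, Cd79a let in (Retnla -0.012 against CD8, Lyz2 -0.27 against Foxp3), removal of barcodes with high Lyz2, Igha or Igkc (Lyz2 -2.96 and Retnla -1.80 against CD8, Retnla -0.43 against Foxp3), removal of those with 5 fibroblast UMIs (Dcn 0.038 between the sides), removal of the deepest cell and the colotomy depths. Hashtags called on raw UMIs put 2.27% of sham and 99.7% of colotomy Epcam barcodes on hashtag 1, and resolution 1.0 gave 6 subclusters. The planned minimum of 20 UMIs for colotomy against sham was not run, since no count of genes is given for 3 cells. Depth limits the helper cytokines: 0 UMIs in the 168 cells allows up to 3 counts, 10.1 CPM.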
